A study of Mus musculus with 21 samples.

Results

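The 10 genes described here encode proteins that start autophagy or carry it out: the kinases Ulk1 and Ulk2, the scaffold Becn1, the conjugation genes Atg5 and Atg7, the ATG8 family genes Map1lc3a, Map1lc3b and Gabarapl1, the cargo receptor Sqstm1 and the mitophagy kinase Pink1. They were taken by symbol from the 24028 rows of a gene count table, and all 10 passed the filter on low counts that left 15792 genes for testing. This list and the other gene lists below were drawn up with earlier results of these data known. The 21 tumours sequenced arose in the mammary glands of mice of genotype WAP-Cre/PIK3CA-H1047R, where Cre recombinase under the promoter of a milk protein gene switches on a mutant catalytic subunit of the kinase PI3K alpha in mammary epithelium. Of these tumours, 7 labelled relapse and 7 labelled stable came from animals given BYL719, an inhibitor of PI3K alpha also known as alpelisib, and 7 came from animals given the solvent DMSO and are called vehicle here. All 21 share this genotype. The labels give neither the ages of the animals nor when tumours were taken, and the design text calls one of the treated groups responding without saying how that relates to relapse.

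Autophagy encloses cell contents in a double membrane and delivers them to lysosomes. A complex around the kinases ULK1 and ULK2 starts it, a lipid kinase complex with beclin 1 marks the membrane, a ubiquitin-like conjugation system attaches ATG8 proteins to the growing membrane, and receptors such as p62 link cargo to those proteins. Signalling from PI3K through AKT and mTOR complex 1 is known to restrain the ULK complex and to keep FOXO and TFEB, transcription factors of autophagy genes, out of the nucleus. Much of this control acts on proteins, which RNA levels do not report.

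Gabarapl1 was the only one of the 10 genes called in either comparison with vehicle, where a call is an adjusted p under 0.05 in edgeR's quasi-likelihood test over all 15792 genes. It rose 1.38-fold in relapse and 1.52-fold in stable tumours. None of the 10 was called between relapse and stable tumours. Map1lc3b in stable tumours missed the threshold (adjusted p = 0.0552) and passed it in 8 of 31 alternative analyses. The fitted fold changes of Ulk1, Becn1, Atg5 and Atg7 lay between 0.892 and 1.06 in all 3 comparisons, and none was called. Among 88 other autophagy genes, 9 rose and 8 fell in relapse tumours (19.3%, beside 11.2% of all genes) and 12 rose and 9 fell in stable tumours (23.9%, beside 15.1%). Rb1cc1, Atg14, Wdr45, Foxo4 and Tsc1 were higher in every treated tumour than in any vehicle tumour. How many of all 15792 genes separate in this way was not counted, so their number has no background to be read against. Their calls were kept without vehicle 2, 6 and 7 except that of Rb1cc1 in relapse tumours (edgeR adjusted p = 0.061).

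The share of all genes called sets the scale for these counts and for those of the shorter lists below. Of 15792 genes, 1772 were called between relapse and vehicle tumours (11.2%), 856 of them higher (5.42%) and 916 lower (5.8%). Between stable and vehicle tumours, 2378 were called (15.1%), 1090 higher (6.9%) and 1288 lower (8.16%). Both comparisons use the same 7 vehicle tumours. Between relapse and stable tumours edgeR called 0 genes (0%), 0% higher and 0% lower, with 751 genes at an unadjusted p under 0.05, and the DESeq2 Wald test called 6. The 1 in 10 called in each comparison with vehicle (10%) is near the share of all genes, so the count says nothing particular about the 10 genes; their median log2 fold change was -0.06 for relapse and -0.01 for stable tumours against vehicle, beside -0.02 and -0.0048 over all genes.

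Total counts were 17722622 to 21431465 in relapse, 13337848 to 24648463 in stable and 21043399 to 24873844 in vehicle tumours. The titles carry a code that took 7 values in relapse, 4 in stable and 3 in vehicle tumours. Relapse and stable tumours shared 2 of these codes. What the code stands for is not stated. Tumours with 1 code may come from 1 animal, and for the shared codes that animal may have held both relapse and stable tumours. The p-values treat every tumour as separate. Vehicle 2, 6 and 7 differed from the other tumours in their cell type markers. The summed level of 11 basal and myoepithelial markers (Myh11, Krt14 and Acta2 the highest) was 18700, 24500 and 11000 CPM (counts scaled to a common library total) in these 3, and 1210 to 4160 CPM in the other 4 vehicle tumours. It was 944 to 2220 CPM in relapse and 291 to 1420 CPM in stable tumours. The 8 luminal markers, which include Epcam and Krt18, summed to 1750 to 3590 CPM in relapse, 1590 to 4780 CPM in stable and 1680 to 4420 CPM in vehicle tumours. The counts over gene lists and the main results are therefore also given without vehicle 2, 6 and 7. In bulk tumours, fewer cells of a type and less RNA per cell cannot be told apart.

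**Figure D1:**
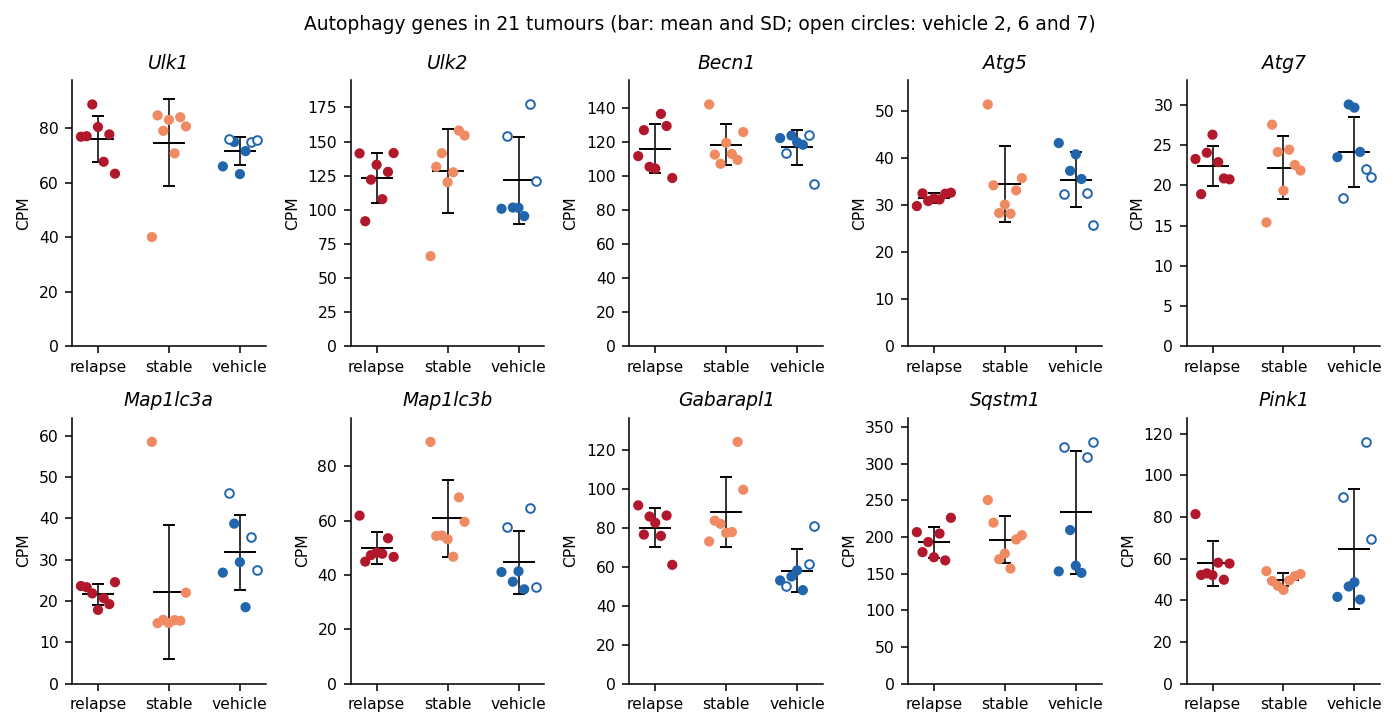
Level of each of the 10 genes in every tumour, in CPM, with the mean and SD of each group of 7 (bars) and vehicle 2, 6 and 7 as open circles. Gabarapl1 lies above the vehicle median in all 14 treated tumours; Sqstm1 and Pink1 are high in the open circles; stable 1 lies apart for Ulk1, Ulk2, Atg5 and Map1lc3a.

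Per kilobase of the gene width given with the table, the mean level over the 21 tumours was highest for Sqstm1, at 102 ± 26.5 CPM per kilobase (SD, n = 21). Becn1 followed at 44.0 ± 4.43 and Gabarapl1 at 42.6 ± 10.3 CPM per kilobase, a difference smaller than either spread. Map1lc3b had 30.2 ± 7.36, Pink1 24.3 ± 7.64, Map1lc3a 24.1 ± 10.8 and Ulk2 21.4 ± 4.54 CPM per kilobase, and neighbours in this order lay within each other's spread. Atg5 at 14.4 ± 2.43 and Ulk1 at 14.2 ± 2 CPM per kilobase were alike within their spread, and Atg7 was lowest at 5.61 ± 0.876 CPM per kilobase. All 10 were well covered, with 215 counts (Map1lc3a) as the lowest count of any of them in a tumour.

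Gabarapl1 (Entrez gene 57436, chromosome 6, 129533192 to 129542331, RefSeq positions on GRCm38.p6) encodes an ATG8 protein of the GABARAP subfamily, which sits on autophagosome membranes and binds cargo receptors and the ULK complex. Its 200 bases around the RefSeq start site are shown with those of Map1lc3b, an ATG8 gene near the threshold in stable tumours, and of Atg14, a gene of the beclin 1 complex that rose in both treated groups. These genes were picked with their expression results known, and each holds a match to a motif described below. Other called genes, among them Tsc1 and Ykt6, are not shown. Each runs from 180 bases before the start site to 20 bases from it, 5′ to 3′ on the strand of the gene, with motif matches in capitals.

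Gabarapl1, chr6:129533012-129533211, plus strand: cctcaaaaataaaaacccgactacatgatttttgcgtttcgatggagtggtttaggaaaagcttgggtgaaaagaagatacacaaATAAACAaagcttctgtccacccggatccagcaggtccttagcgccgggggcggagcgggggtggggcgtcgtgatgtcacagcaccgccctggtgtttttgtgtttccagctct
Map1lc3b, chr8:121590258-121590457, plus strand: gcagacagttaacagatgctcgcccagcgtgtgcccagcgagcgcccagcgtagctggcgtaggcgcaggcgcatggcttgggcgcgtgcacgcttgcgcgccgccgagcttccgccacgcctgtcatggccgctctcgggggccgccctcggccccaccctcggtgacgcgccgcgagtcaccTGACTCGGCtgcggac
Atg14, chr14:47568415-47568614, minus strand: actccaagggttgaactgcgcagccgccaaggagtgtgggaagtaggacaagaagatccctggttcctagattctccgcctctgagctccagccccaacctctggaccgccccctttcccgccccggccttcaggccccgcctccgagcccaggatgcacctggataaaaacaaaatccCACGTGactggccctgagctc

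Motifs were searched on both strands of 32851 RefSeq promoters, each 250 bases before to 50 bases after the start: the E-box CACGTG bound by TFEB and related factors, the FOXO site GTAAACA, and the core of the antioxidant response element, TGACNNNGC, bound by NRF2. Of all promoters, 7.15%, 3.65% and 12.4% held them. RefSeq gave a promoter for 8 of the 10 genes, all except Becn1 and Map1lc3a. The E-box was found in Atg5 (first base 14 bases before the start) and Atg7 (132 bases before), and the antioxidant core in Ulk2 (17 bases before) and Map1lc3b (4 bases after, capitals above). GTAAACA was in 0 of these 8. The related letters ATAAACA, added after the Gabarapl1 sequence had been seen, occur there 95 bases before the start (capitals above), in 1 of the 8 genes and in 4.6% of all promoters. In Atg14 the capitals mark an E-box whose first base is 1 base before the start. RefSeq gave a promoter for 73 of the 88 other autophagy genes. Of these, 12 held the E-box, 11 the antioxidant core, 0 GTAAACA and 8 ATAAACA. Among called genes, the E-box was in Atg14, which rose, and in Rubcn, which fell. The antioxidant core was in Atg13, which rose, and in Ncoa4, Tax1bp1 and Rab7, which fell. ATAAACA was in Wipi2, which rose, and in Atg4a, Fkbp8 and Rab7, which fell. These matches describe letters only and were not tested against the expression values.

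Gabarapl1 had 61.1 CPM in the lowest, 82.8 in the median and 91.7 in the highest relapse tumour, and 73.1, 82.2 and 124 CPM in the stable tumours. In vehicle tumours these values were 48.1, 55.1 and 81.0 CPM. All 7 relapse and all 7 stable tumours lay above the vehicle median, and 4 of each lay above the highest vehicle tumour, vehicle 7. The next highest vehicle tumour, vehicle 6, had 61.4 CPM, and only relapse 7 (61.1 CPM) lay under it. The log2 fold change was 0.46 ± 0.13 for relapse against vehicle (SE; 95% interval 0.19 to 0.74; edgeR adjusted p = 0.0282) and 0.60 ± 0.13 for stable against vehicle (0.33 to 0.88; adjusted p = 0.00617).

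The stable call was kept in all 31 alternatives, with adjusted p between 0.000244 and 0.0362. The relapse call was lost without relapse 1 (0.0583), relapse 3 (0.0685), relapse 6 (0.0556), vehicle 1 (0.055) or vehicle 2 (0.0631), and its log2 fold change stayed between 0.42 and 0.59 in every alternative. Without vehicle 2, 6 and 7 the log2 fold changes were 0.59 for relapse (adjusted p = 0.0328) and 0.73 for stable tumours (adjusted p = 0.00669). With those 3 left out and counts summed per title code as well, they were 0.57 for relapse (adjusted p = 0.0505) and 0.71 for stable tumours (0.0362).

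Skeletal muscle RNA moved with treatment. Of 13 skeletal muscle markers, 12 rose in relapse and 8 in stable tumours. Without vehicle 2, 6 and 7, 0 of 13 were called in each (lowest edgeR adjusted p 0.0553 for relapse and 0.168 for stable). All 13 log2 fold changes stayed positive there, with medians of 4.45 for relapse and 2.54 for stable tumours (5.15 and 3.2 with all tumours). The summed level of the markers was 189 to 8000 CPM in relapse, 225 to 4630 CPM in stable and 211 to 571 CPM in vehicle tumours, with none at 0 in every tumour of a group. Relapse 4, with 189 CPM of muscle markers, had 82.8 CPM of Gabarapl1, and stable 2, with 225 CPM, had 83.8 CPM. Relapse 1, with 8000 CPM of muscle markers, had 91.7 CPM of Gabarapl1. Across the 21 tumours the correlation of log2 Gabarapl1 with the muscle sum was 0.348 (Pearson, a description across tumours that share groups). Vehicle tumours, with 211 to 571 CPM of muscle markers, had 48.1 to 81.0 CPM of Gabarapl1. The part of muscle RNA in the Gabarapl1 difference was not tested.

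**Figure D2:**
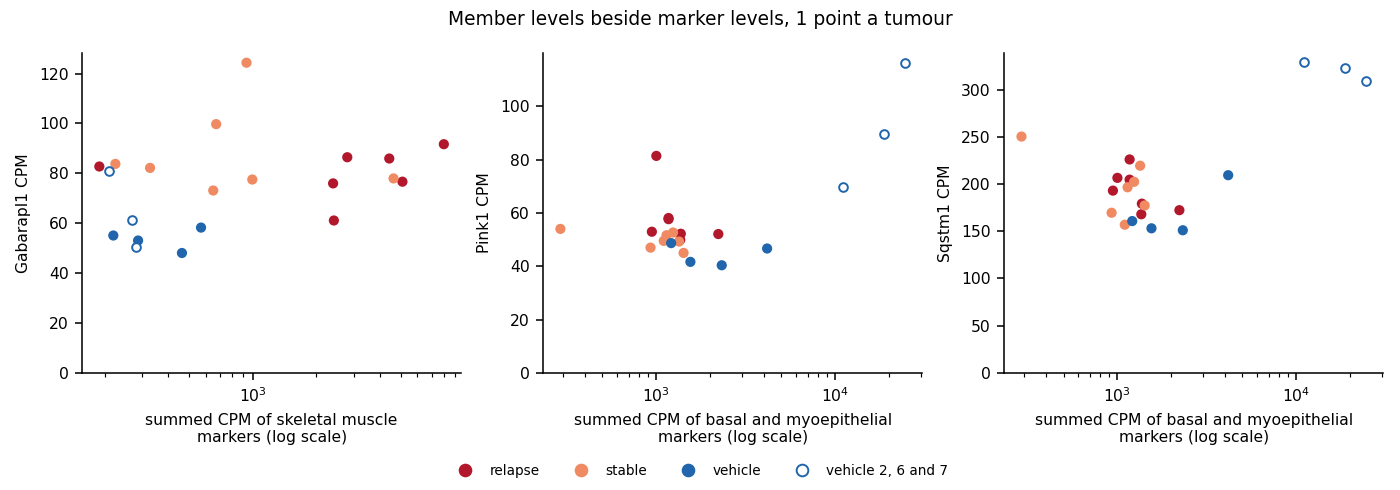
Level of Gabarapl1 against the summed level of 13 skeletal muscle markers, and of Pink1 and Sqstm1 against that of 11 basal and myoepithelial markers, all in CPM with log horizontal axes and 1 point a tumour. Gabarapl1 is at 82.8 CPM in the relapse tumour with the lowest muscle sum, while Pink1 and Sqstm1 are high in the 3 vehicle tumours with the highest basal sums.

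The genes outside the lists whose log2 CPM followed Gabarapl1 most closely over the 21 tumours, out of 13217 genes whose log2 CPM averaged 1 or more, were Sesn3 (Pearson r = 0.825), Zfyve1 (0.802) and Ano3 (0.793). Sesn3 averaged 83.7 CPM in relapse, 117 in stable and 50.9 in vehicle tumours. Zfyve1 averaged 77.4 CPM in relapse, 92.3 in stable and 47.3 in vehicle tumours. Ano3 was far lower, at 2.6 CPM in relapse, 2.82 in stable and 1.23 in vehicle tumours. These correlations rest in part on the difference between treated and vehicle tumours.

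Map1lc3b (Entrez gene 67443, chromosome 8, 121590438 to 121598760) encodes LC3B, the ATG8 protein most used to mark autophagosomes. It had 44.9, 47.8 and 61.8 CPM in the lowest, median and highest relapse tumour and 46.7, 54.5 and 88.9 CPM in stable tumours, against 34.7, 41.0 and 64.4 CPM in vehicle tumours. All 14 treated tumours lay above the vehicle median. Vehicle 2 and 6, at 57.7 and 64.4 CPM, lay within the treated range, and 0 relapse and 2 stable tumours lay above the highest vehicle tumour. Map1lc3b had a log2 fold change of 0.17 ± 0.15 for relapse (95% interval -0.16 to 0.49; edgeR adjusted p = 0.527) and 0.45 ± 0.15 for stable tumours (0.12 to 0.77; adjusted p = 0.0552) against vehicle.

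The stable value passed the threshold in 8 alternatives, at adjusted p between 0.0182 and 0.0493. They include leaving out vehicle 2, 6 and 7 (log2 fold change 0.67, adjusted p = 0.0182), the DESeq2 Wald test (0.0302), and leaving out stable 5 (0.038), vehicle 2 (0.0467) or vehicle 6 (0.0263). Over the other alternatives adjusted p reached 0.148. Without vehicle 2, 6 and 7 the relapse value was 0.38 (adjusted p = 0.158). The Pearson correlation of Gabarapl1 with Map1lc3b was 0.453 over 21 tumours, 0.254 within the treated groups (14 tumours) and 0.793 there without stable 1, in which Map1lc3b was 88.9 and Gabarapl1 73.1 CPM.

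Map1lc3a (Entrez gene 66734, chromosome 2, 155276364 to 155278073) encodes LC3A, the paralogue of LC3B. It had 17.9, 21.8 and 24.6 CPM in the lowest, median and highest relapse tumour and 14.6, 15.4 and 58.6 CPM in stable tumours, against 18.5, 29.4 and 46.1 CPM in vehicle tumours. All 7 relapse tumours and 6 of 7 stable tumours lay below the vehicle median. The exception, stable 1, held the highest level of any tumour. Against vehicle, Map1lc3a had a log2 fold change of -0.56 ± 0.28 for relapse (95% interval -1.14 to 0.03; edgeR adjusted p = 0.203) and -0.51 ± 0.28 for stable tumours (-1.10 to 0.07; adjusted p = 0.217).

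Without stable 1 both differences were called. The log2 fold change was then -0.97 for stable (adjusted p = 0.00123) and -0.56 for relapse tumours (adjusted p = 0.022), although stable 1 is in neither group of the relapse comparison; all 3 groups share 1 fit. Fitted with only relapse and vehicle tumours, the relapse value was -0.56 at an adjusted p of 0.0499. Without vehicle 2, 6 and 7 neither difference was called. The log2 fold change was then -0.38 for relapse (edgeR adjusted p = 0.56) and -0.33 for stable tumours (edgeR adjusted p = 0.606). Leaving out vehicle 2 alone gave edgeR adjusted p of 0.394 for relapse and 0.471 for stable tumours. Stable 1 also had the highest luminal marker sum of the 21 tumours, 4780 CPM, and the lowest basal sum, 291 CPM; the part of tumour composition in its Map1lc3a level was not tested.

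**Figure D3:**
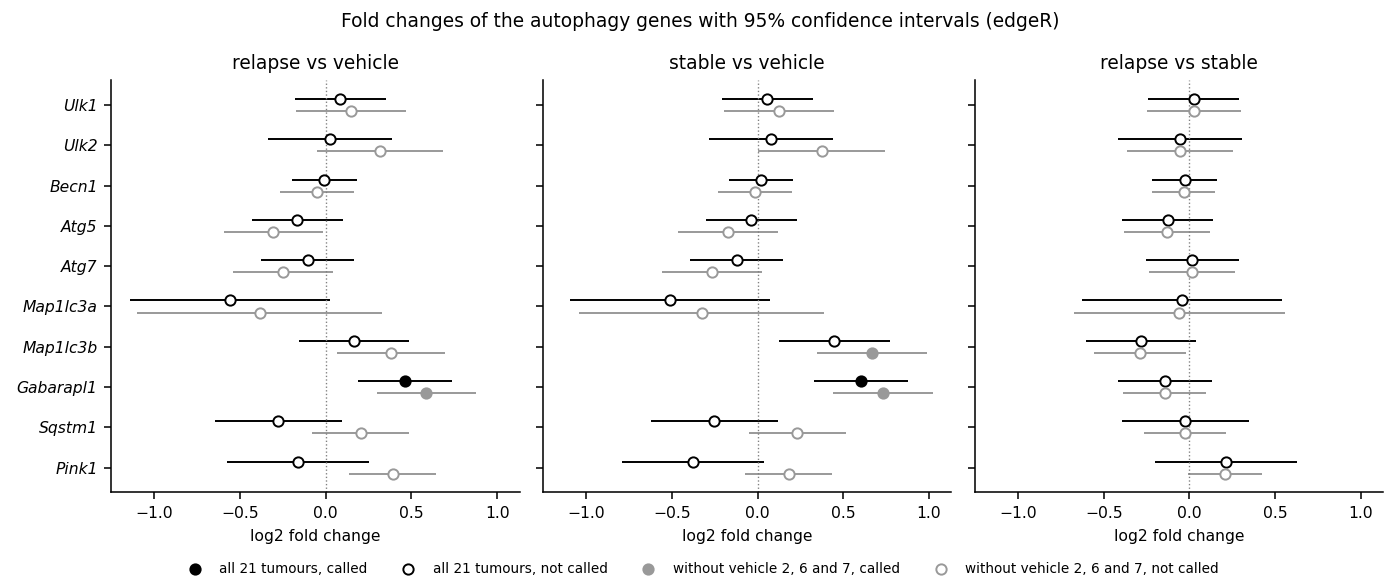
Log2 fold changes of the 10 genes with 95% confidence intervals in the 3 comparisons, from all 21 tumours (black) and without vehicle 2, 6 and 7 (grey); filled points are called at an adjusted p under 0.05. Gabarapl1 is filled in both comparisons with vehicle, Map1lc3b only for stable tumours without vehicle 2, 6 and 7, and Pink1 and Sqstm1 change sign without those tumours.

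Among the 11 other genes of ATG8 and ATG12 conjugation, 0 rose and 2 fell in each comparison with vehicle, and 0 were called without vehicle 2, 6 and 7. The share called was 18.2%, beside 11.2% of all genes for relapse and 15.1% for stable tumours. Gabarap, the closest relative of Gabarapl1, had 59.2 ± 9.55 CPM in relapse, 59.5 ± 15.9 CPM in stable and 88.8 ± 29.5 CPM in vehicle tumours (SD, n = 7 in each group). On the log2 scale Gabarap differed from vehicle by -0.58 ± 0.19 for relapse (edgeR adjusted p = 0.0462) and -0.58 ± 0.19 for stable tumours (adjusted p = 0.0415). These calls were kept in 8 (relapse) and 13 (stable) of 31 alternatives and were lost without vehicle 2, 6 and 7 (relapse -0.37, adjusted p = 0.243; stable -0.36, adjusted p = 0.244). Atg4a, a protease that processes ATG8 proteins, fell by 0.55 ± 0.12 on the log2 scale in relapse (adjusted p = 0.00782) and by 0.46 ± 0.12 in stable tumours (adjusted p = 0.0162); without vehicle 2, 6 and 7 the adjusted p was 0.0839 for relapse and 0.156 for stable tumours. Gabarapl2, the remaining member of the subfamily, was not called (-0.09 for relapse, 0.08 for stable).

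Atg7 (Entrez gene 74244, chromosome 6, 114643127 to 114860604) encodes the E1-like enzyme that activates ATG8 proteins and ATG12, and Atg5 (Entrez gene 11793, chromosome 10, 44268322 to 44364299) the acceptor to which ATG12 is joined. Atg7 had 18.9, 22.9 and 26.3 CPM in the lowest, median and highest relapse tumour and 15.4, 22.5 and 27.5 CPM in stable tumours, against 18.4, 23.5 and 30 CPM in vehicle tumours. The groups overlapped throughout, and the log2 fold change was -0.11 for relapse (95% interval -0.38 to 0.17) and -0.12 for stable tumours (-0.40 to 0.15). Atg5 had 29.8, 31.4 and 32.6 CPM in relapse and 28.2, 33.1 and 51.4 CPM in stable tumours, against 25.8, 35.6 and 43.2 CPM in vehicle tumours. The relapse tumours were tightly grouped, all below the vehicle median but within the vehicle range. Atg5 had a log2 fold change of -0.17 for relapse (-0.43 to 0.10) and -0.04 for stable tumours (-0.30 to 0.23), with edgeR adjusted p of 0.429 and 0.864. Without vehicle 2, 6 and 7 the log2 fold change of Atg5 for relapse was -0.31 and was not called (edgeR adjusted p = 0.213). All 7 relapse tumours lay under the lowest of the other 4 vehicle tumours (35.6 CPM), but vehicle 2, 6 and 7 had 32.4, 32.6 and 25.8 CPM. How many of all genes separate in this way was not counted.

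Ulk1 (Entrez gene 22241, chromosome 5, 110784489 to 110810120) and Ulk2 (Entrez gene 29869, chromosome 11, 61775598 to 61855334) encode the kinases that start autophagy. Ulk1 had 63.2, 77.0 and 88.6 CPM in the lowest, median and highest relapse tumour and 40.0, 80.6 and 84.6 CPM in stable tumours, against 63.1, 74.8 and 75.8 CPM in vehicle tumours. Of the treated tumours, 5 in each group lay above the highest vehicle tumour and 2 in each below the vehicle median. Ulk1 had a log2 fold change of 0.08 for relapse (95% interval -0.18 to 0.35; edgeR adjusted p = 0.719) and 0.06 for stable tumours (-0.21 to 0.32; adjusted p = 0.791). Ulk2 had 91.6, 128 and 142 CPM in relapse and 66.0, 132 and 158 CPM in stable tumours, against 95.4, 102 and 177 CPM in vehicle tumours. Its log2 fold change was 0.02 for relapse (-0.34 to 0.39) and 0.08 for stable tumours (-0.28 to 0.44). Vehicle 2, 6 and 7 were at 154, 177 and 121 CPM and the other 4 at 95.4 to 102 CPM, and without those 3 the log2 fold changes were 0.32 for relapse (adjusted p = 0.313) and 0.37 for stable tumours (adjusted p = 0.213).

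Of 3 further genes of the ULK complex, 2 rose in each comparison with vehicle and 0 fell. The share called was 66.7%, beside 11.2% of all genes for relapse and 15.1% for stable tumours. Without vehicle 2, 6 and 7, 0 were called in relapse and 2 rose in stable tumours. Rb1cc1, the scaffold FIP200 of that complex, had 350 ± 40.4 CPM in relapse, 414 ± 62.5 CPM in stable and 268 ± 19.8 CPM in vehicle tumours (SD over 7 tumours each), with all 14 treated tumours above the highest vehicle tumour. Its log2 fold change was 0.39 ± 0.10 for relapse (edgeR adjusted p = 0.0143; 0.061 without vehicle 2, 6 and 7, 0.0618 after summing by title code) and 0.63 ± 0.10 for stable tumours (adjusted p = 0.000644). Atg13, the adaptor that joins the kinases to FIP200, had 36.3 ± 3.41 CPM in relapse, 45.3 ± 8.93 CPM in stable and 26.3 ± 6.45 CPM in vehicle tumours. It rose by 0.78 ± 0.15 on the log2 scale in stable tumours (adjusted p = 0.00271). In relapse tumours it was 0.47 ± 0.15 (adjusted p = 0.0484), a call kept in 8 of 31 alternatives and lost without vehicle 2, 6 and 7 (0.23, adjusted p = 0.325). Atg101 was not called in either.

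Becn1 (Entrez gene 56208, chromosome 11, 101288258 to 101302286) encodes beclin 1, the scaffold of the class III PI3-kinase complex, a lipid kinase distinct from the target of BYL719. It had 99.0, 112 and 137 CPM in the lowest, median and highest relapse tumour and 107, 113 and 142 CPM in stable tumours, against 95.4, 120 and 124 CPM in vehicle tumours. The 3 ranges overlapped, and Becn1 had the narrowest intervals of the 10 genes: -0.01 (95% interval -0.20 to 0.18) for relapse and 0.02 (-0.17 to 0.21) for stable tumours against vehicle on the log2 scale. Of the 7 other genes of this complex, 1 rose and 0 fell in relapse, and 2 rose and 1 fell in stable tumours (2 and 0 without vehicle 2, 6 and 7). The relapse share with all tumours, 14.3%, is near the 11.2% of all genes, and the stable share was 42.9%, beside 15.1%.

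Atg14, which directs the complex to autophagosome formation, had 22.4 to 28.5 CPM in relapse and 23.9 to 33.4 CPM in stable tumours, against 13 to 19.4 CPM in vehicle tumours, with no overlap. Its log2 fold change was 0.66 ± 0.11 for relapse (edgeR adjusted p = 0.00176) and 0.82 ± 0.11 for stable tumours (adjusted p = 0.000176), and both calls were kept in 30 of 31 alternatives. Without vehicle 2, 6 and 7 the values were 0.52 for relapse (adjusted p = 0.0212) and 0.68 for stable tumours (adjusted p = 0.00311). Pik3c3, the catalytic subunit VPS34, rose by 0.44 ± 0.08 in stable tumours (adjusted p = 0.00261; 0.0574 after summing by title code), with 75.1 ± 9.05 CPM there and 55.5 ± 5.17 CPM in vehicle tumours. Rubcn, an inhibitor of the complex, fell by 0.28 ± 0.09 in stable tumours (adjusted p = 0.0449; 0.323 without vehicle 2, 6 and 7).

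Sqstm1 (Entrez gene 18412, chromosome 11, 50200152 to 50210820) encodes p62, a receptor that binds ubiquitinated cargo and is itself degraded by autophagy. It had 168, 193 and 226 CPM in the lowest, median and highest relapse tumour and 157, 197 and 250 CPM in stable tumours, against 151, 209 and 329.6 CPM in vehicle tumours. Vehicle 2, 6 and 7 had 322.7, 308.7 and 329.6 CPM, above every other tumour, and the other 4 vehicle tumours had 151 to 209 CPM. Sqstm1 had a log2 fold change of -0.28 ± 0.18 for relapse (edgeR adjusted p = 0.331) and -0.25 ± 0.18 for stable tumours (adjusted p = 0.345). Without those 3 tumours it changed sign, to 0.20 for relapse (adjusted p = 0.411) and 0.23 for stable tumours (adjusted p = 0.319).

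Pink1 (Entrez gene 68943, chromosome 4, 138313409 to 138326296) encodes the kinase that marks damaged mitochondria for removal. It had 49.9, 52.9 and 81.4 CPM in the lowest, median and highest relapse tumour and 45.0, 49.5 and 54.0 CPM in stable tumours, against 40.4, 48.7 and 116 CPM in vehicle tumours. Vehicle 2, 6 and 7 were high here too, at 89.7, 116 and 69.6 CPM, against 40.4 to 48.7 CPM in the other 4. All 7 relapse and 5 of 7 stable tumours lay above the vehicle median. The log2 fold change was -0.16 ± 0.20 for relapse (edgeR adjusted p = 0.643) and -0.37 ± 0.20 for stable tumours (adjusted p = 0.204), and without those 3 it was 0.39 for relapse (adjusted p = 0.0764) and 0.18 for stable tumours (adjusted p = 0.388).

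Over the 21 tumours Sqstm1 and Pink1 had the highest Pearson correlation of any pair of the 10 genes, 0.796. Over the 17 left without vehicle 2, 6 and 7 and stable 1 it was 0.582, and the highest there was that of Gabarapl1 with Map1lc3b, 0.927. Both values span treated and vehicle tumours and rest in part on the difference between them. Within the treated groups that of Gabarapl1 with Map1lc3b was 0.254, and 0.793 without stable 1. The correlations of Sqstm1 and Pink1 with the sum of basal and myoepithelial markers were 0.615 and 0.638 over 21 tumours, and -0.403 and -0.365 without vehicle 2, 6 and 7. Of those 11 markers, 7 fell in each comparison with vehicle, none was at 0 in every tumour of a group, and 0 were called without vehicle 2, 6 and 7. Pink1 in relapse 1 (81.4 CPM) stood beside the highest skeletal muscle sum (8000 CPM) and the highest adipocyte sum (1000 CPM) of any tumour. The part of these cell types in the Sqstm1 and Pink1 values was not tested.

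Of 11 other cargo receptors, 0 rose and 3 fell in relapse, and 2 rose and 2 fell in stable tumours. The shares called were 27.3% and 36.4%, beside 11.2% and 15.1% of all genes. The counts without vehicle 2, 6 and 7 were 2 higher and 0 lower in relapse, and 3 higher and 1 lower in stable tumours. Ccpg1, a receptor for the endoplasmic reticulum, was called in both only there (0.50, adjusted p = 0.0218, for relapse and 0.73, adjusted p = 0.00139, for stable tumours; -0.05 and 0.17 with all tumours). Calcoco1, a receptor for parts of the endoplasmic reticulum, had 130 ± 22.4 CPM in stable and 83.7 ± 31.5 CPM in vehicle tumours (SD, n = 7 each) and a log2 fold change of 0.64 ± 0.18 (edgeR adjusted p = 0.0247; 0.0651 after summing by title code), and of 1.08 without vehicle 2, 6 and 7 (adjusted p = 0.000467). In relapse tumours Calcoco1 was at 0.29 (adjusted p = 0.316), and at 0.73 without vehicle 2, 6 and 7 (adjusted p = 0.0118). Nbr1, a receptor related to p62, rose by 0.58 ± 0.13 in stable tumours (adjusted p = 0.00923; 0.126 after summing by title code). Ncoa4, the receptor for ferritin, fell by 0.46 ± 0.13 in relapse (adjusted p = 0.0231; 0.0895 without vehicle 2, 6 and 7) and by 0.52 ± 0.13 in stable tumours (adjusted p = 0.0116; 0.0483). Optn, a receptor used in mitophagy, fell in both (relapse -0.49, adjusted p = 0.0184; stable -0.42, adjusted p = 0.0325) and Tax1bp1, a receptor for ubiquitinated cargo, in relapse tumours (-0.45, adjusted p = 0.0487), all lost without vehicle 2, 6 and 7. Of 11 other mitophagy genes, 0 were called in relapse tumours (0%) and Fkbp8 alone fell in stable tumours (9.09%). Its log2 fold change was -0.43 (edgeR adjusted p = 0.0342, or 0.398 without vehicle 2, 6 and 7).

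**Figure D4:**
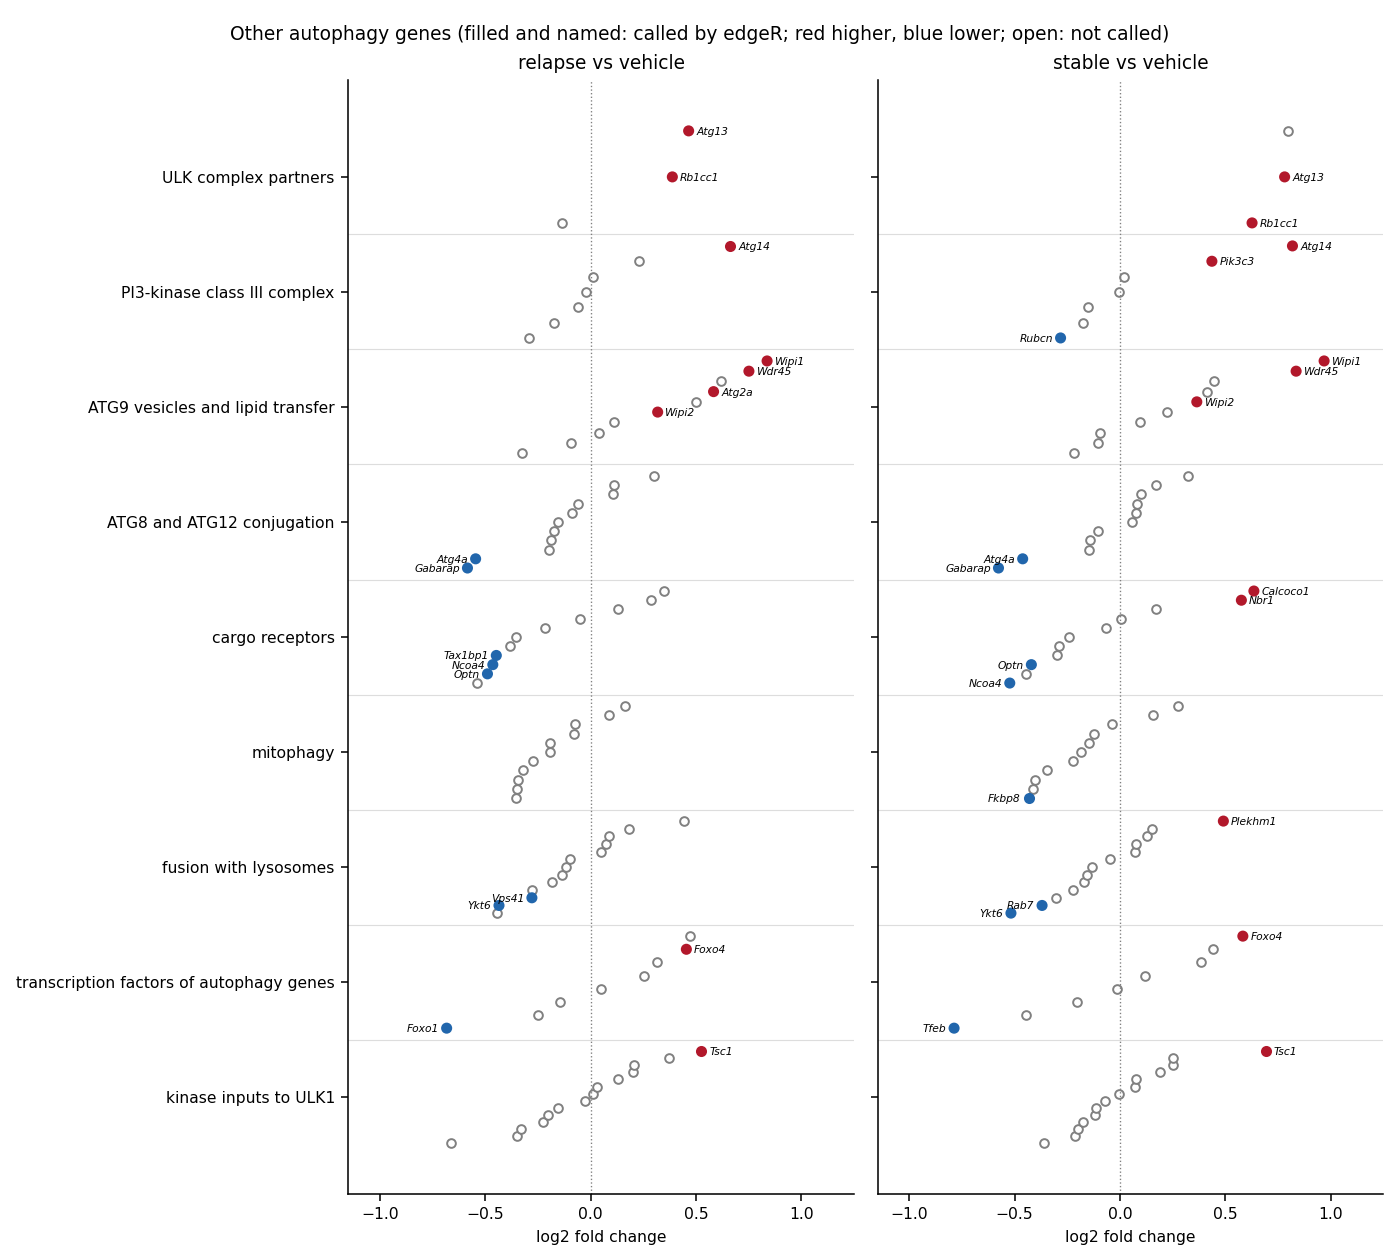
Log2 fold changes of 88 other autophagy genes in 9 lists, for relapse and stable tumours against vehicle, 1 point a gene; filled, named points are called at an adjusted p under 0.05 (red higher, blue lower). Called genes of the ULK complex and of ATG9 vesicles and lipid transfer lie to the right of 0, and the 2 of ATG8 and ATG12 conjugation to the left. Without vehicle 2, 6 and 7, 0 conjugation genes were called, and the ULK complex had 0 called in relapse and 2 higher in stable tumours. The ATG9 list then had 1 higher and 1 lower in relapse, and 1 higher in stable tumours. Over the 88 genes, 8 were then called in relapse (9.09%, beside 3.28% of all genes) and 12 in stable tumours (13.6%, beside 5.27%).

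Over the 88 other autophagy genes, 17 were called in relapse and 21 in stable tumours. Their median log2 fold changes were -0.08 for relapse and -0.04 for stable tumours. Without vehicle 2, 6 and 7, 6 rose and 2 fell in relapse (9.09%, beside 3.28% of all genes) and 10 rose and 2 fell in stable tumours (13.6%, beside 5.27%). Of the calls from all tumours, 5 of 17 in relapse and 11 of 21 in stable tumours were kept. With counts summed per title code, 8 of those calls were kept in each comparison: Atg14, Wdr45, Ncoa4, Ykt6, Foxo4 and Tsc1 in both, Atg2a and Atg4a in relapse, and Atg13 and Rb1cc1 in stable tumours. In relapse tumours, leaving out vehicle 2 (8 called), vehicle 6 or relapse 6 (9 each), or relapse 3 or vehicle 7 (11 each) also lowered the count by over 1.5 times. Between relapse and stable tumours 0 of 88 were called, and 7 had an unadjusted p under 0.05.

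Of 10 genes for ATG9 vesicles and lipid transfer, 4 rose in relapse and 3 in stable tumours, and 0 fell. The shares called were 40% and 30%, beside 11.2% and 15.1% of all genes. Without vehicle 2, 6 and 7, Wdr45 alone was called higher in each comparison, and Tmem41b, a lipid scramblase, lower in relapse tumours (-0.54, adjusted p = 0.0311; -0.33, adjusted p = 0.137, with all tumours). Wdr45, which binds the lipid made by the beclin 1 complex, had 16.1 to 23.5 CPM in relapse and 15.1 to 25.9 CPM in stable tumours, against 6.76 to 13.3 CPM in vehicle tumours, with no overlap. Its log2 fold change was 0.75 ± 0.15 for relapse (edgeR adjusted p = 0.00473) and 0.84 ± 0.15 for stable tumours (adjusted p = 0.00158), and it held without vehicle 2, 6 and 7 (adjusted p = 0.0234 for relapse and 0.00745 for stable). Its relative Wipi1 rose by 0.84 ± 0.24 in relapse (adjusted p = 0.0266) and by 0.97 ± 0.24 in stable tumours (adjusted p = 0.0119), calls lost without those vehicle tumours (0.174 for relapse and 0.0945 for stable). Atg2a, a lipid transfer protein, rose by 0.58 ± 0.15 in relapse tumours (adjusted p = 0.0186; 0.136 without vehicle 2, 6 and 7) and was at 0.41 ± 0.15 in stable tumours (adjusted p = 0.071), with no call between relapse and stable tumours.

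Of 13 genes for fusion with lysosomes, 2 fell and 0 rose in relapse, and 1 rose and 2 fell in stable tumours. The shares called were 15.4% and 23.1%, beside 11.2% and 15.1% of all genes. Without vehicle 2, 6 and 7, Ykt6 alone was called, in both. Ykt6, a SNARE protein used in fusion, had 56.1 ± 2.99 CPM in relapse, 53.0 ± 6.53 CPM in stable and 75.8 ± 7.90 CPM in vehicle tumours (SD, n = 7 each). It fell by 0.44 ± 0.09 in relapse (edgeR adjusted p = 0.00498) and by 0.52 ± 0.09 in stable tumours (adjusted p = 0.00105), and both calls were kept in all 31 alternatives. Rab7, a small GTPase of late endosomes, fell by 0.37 ± 0.11 in stable tumours (adjusted p = 0.0307; 0.0512 without vehicle 2, 6 and 7).

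Of 8 transcription factors of autophagy genes, 1 rose and 1 fell in each comparison with vehicle (25% called, beside 11.2% and 15.1% of all genes). Without vehicle 2, 6 and 7, Foxo4 alone was called, in both. Foxo4 had 28.9 to 39.4 CPM in relapse and 32.5 to 47.7 CPM in stable tumours, against 23.1 to 27.4 CPM in vehicle tumours, with no overlap (log2 fold change 0.45 ± 0.10 for relapse, edgeR adjusted p = 0.0068, and 0.58 ± 0.10 for stable, adjusted p = 0.000946). Foxo1 fell by 0.68 ± 0.22 in relapse tumours (adjusted p = 0.0448; 0.345 without vehicle 2, 6 and 7). Tfeb, of a master factor of lysosome genes, fell by 0.79 ± 0.21 in stable tumours (adjusted p = 0.0175; 0.122 without those 3), at 6.38 ± 2.02 CPM there and 11 ± 1.6 CPM in vehicle tumours. These are RNA levels, and where the factors sat in the cell was not measured.

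Of 14 genes of the kinase inputs to ULK1 (mTOR complex 1, AMPK and their regulators), 1 rose in each comparison with vehicle and 0 fell. This share, 7.14%, is below the 11.2% of all genes called for relapse and the 15.1% for stable tumours. The called gene, Tsc1, encodes a subunit of the complex that restrains mTOR complex 1. It had 70.8 to 85.2 CPM in relapse and 83.1 to 106 CPM in stable tumours, against 48.9 to 61.6 CPM in vehicle tumours, with no overlap. Its log2 fold change was 0.53 ± 0.08 for relapse (edgeR adjusted p = 0.00106) and 0.69 ± 0.08 for stable tumours (adjusted p = 3.50e-05), and without vehicle 2, 6 and 7 it was 0.42 for relapse (adjusted p = 0.0178) and 0.59 for stable tumours (adjusted p = 0.00116).

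Relapse and stable tumours could not be separated by any of the 10 genes. The lowest adjusted p among them was 0.99. The largest differences were in Map1lc3b, at -0.28 for relapse against stable on the log2 scale (95% interval -0.60 to 0.04), and Pink1, at 0.21 (-0.20 to 0.63). For Gabarapl1 the difference was -0.14 (-0.42 to 0.13), so that a level in relapse tumours up to 0.42 lower or 0.13 higher on the log2 scale lies within the interval. The widest interval was that of Map1lc3a (-0.63 to 0.54): its value was -0.05 with all tumours and 0.41 without stable 1.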

How the data were processed

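Polyadenylated RNA of 21 frozen tumours was made into stranded libraries and sequenced as single reads of 50 bases, per the labels' protocols. Per the submitters' processing notes, Picard 2.9.2, SAMtools 1.3.1, STAR 2.5.2a and edgeR were used on build mm10. How strands and multiply matching reads were handled, and the annotation, are not given in the sources used. Counts came as 1 table that the authors deposited, raw and whole-number per gene, with a gene width in bases (another value of no sample, used only for levels per kilobase). In 10202 of 24028 rows an extra leading cell shifted the columns, so the last 25 cells were read. 14 rows had no symbol.

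The 10 genes and the other lists were chosen with earlier results of these data known. Counts were filtered with filterByExpr, scaled by TMM and tested with the quasi-likelihood test in edgeR 4.0.16 under R 4.3.3, fitting the 21 tumours together without covariates; Benjamini-Hochberg adjustment ran over 15792 genes, and genes under 0.05 were called. CPM are TMM-scaled. Tumours were grouped by title; no 2 tumours of a group were repeats of 1 library (chi-square per degree of freedom at least 17.6). Alternatives were other scalings, DESeq2 1.42.0, limma 3.58.1 voom, no filter, a fit of the 2 groups, summed counts per title code, the replicate number as a block, each tumour left out in turn, and vehicle 2, 6 and 7 left out. The code was tested on simulated data.

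Named genes are the 10 genes, up to 3 called genes a direction of lowest p in each of 9 autophagy lists, the highest markers of a cell type list, and the 3 genes most correlated with a called gene; Gabarapl2, Atg101, Ccpg1, Tmem41b and Calcoco1 in relapse tumours, outside this rule, were added after their values were seen. On opposite strands, Map1lc3b shares 58 bases with Zcchc14 (at most 2648 counts), Sqstm1 750 bases with Mrnip (at most 182 counts) and Gabarapl1 658 bases with 1700101I11Rik (at most 9 counts); with the strand setting unknown, such reads, and reads shared by the similar Gabarap genes, are uncertain.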

Additional observations from a re-analysis of the deposited data

Results flagged for a closer look

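In 7 of 30 combinations of gene and group, 1 tumour lay further from the other 6 than Dixon's 95% limit for 7 values allows; chance gives about 1 in 20. Stable 1 accounts for 4 of them. Its Atg5 was 51.4 CPM (next 35.7 CPM), its Map1lc3a 58.6 CPM (next 22 CPM), its Ulk1 40.0 CPM (next 70.7 CPM) and its Ulk2 66.0 CPM (next 120 CPM), so that it was highest of its group for the first pair and lowest for the second. Vehicle 7 had the lowest Becn1 of its group, 95.4 CPM (next 114 CPM), and the highest Gabarapl1, 81.0 CPM (next 61.4 CPM). Relapse 1 had the highest Pink1 of its group, 81.4 CPM (next 58.1 CPM). Stable 1 held the lowest sum of basal and endothelial markers of the 21 tumours (291 and 93.6 CPM).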

How the results depend on the processing

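Of 930 values of single members under 31 alternatives, 868 kept direction and side of the threshold, 6 lost a call, 11 gained one and 45 changed sign, none of them called. The share of higher among called genes moved with scaling: with upper quartile factors it was 953 higher and 673 lower for relapse and 1294 higher and 1032 lower for stable against vehicle. For relapse against vehicle, 987 genes were called with the replicate block, 955 with summed counts, 527 without vehicle 2, 6 and 7 and 180 with both; for stable against vehicle 1251 with the block, 964 from the 2 groups, 592 summed, 847 without those 3 and 172 with both. DESeq2 called 6 genes between relapse and stable tumours. Members called were 2 from the 2 groups and 0 with both for relapse, and 2 for stable with upper quartile scaling, DESeq2, the block, voom and without vehicle 2, 6 and 7. Of the 88 wider genes, relapse had 9 called with the block, 8 summed, 8 without those 3 and 2 with both; stable had 12 from the 2 groups, 8 summed, 12 without those 3 and 4 with both. The labels do not say that replicate numbers pair tumours, so the block is a hint only. In each comparison 1 of 7 same-numbered pairs correlated above 0.1 (-0.24 to 0.118 for relapse and -0.25 to 0.358 for stable against vehicle, -0.258 to 0.184 for relapse against stable). Such values cannot settle pairing, since relapse 5 and stable 5 share a title code and correlated at -0.142.

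Signs turned for Becn1 in relapse against vehicle (0.0502, upper quartile), Pink1 (0.39 without vehicle 2, 6 and 7, 0.378 also summed), Sqstm1 (0.204 and 0.209) and Ulk2 (-0.000181, no filter); in stable against vehicle for Atg5 (0.000343, upper quartile), Becn1 (-0.0174 and -0.0564), Pink1 (0.182 and 0.181) and Sqstm1 (0.232 and 0.209); and between relapse and stable for Map1lc3a (0.101 with the block, 0.127 with voom). None of these was called, and the cause was not tested.

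Leaving out each tumour gave 1156 (vehicle 6) to 2671 (stable 1) genes for relapse against vehicle, with 1160 without vehicle 2, 1470 (vehicle 6) to 3272 for stable against vehicle, with 1496 without vehicle 2, and 0 to 4 between relapse and stable, with 4 without relapse 4 and 1 without stable 5. Members called ran from 0 to 2 and from 1 to 2, and wider genes from 8 to 24 for relapse. Log2 fold changes ran, for relapse against vehicle, from -0.0554 to 0.0164 (Becn1), -0.27 to 0.0344 (Pink1) and -0.0395 to 0.131 (Ulk2); for stable against vehicle, from -0.163 to 0.0183 (Atg5) and -0.0278 to 0.0489 (Becn1); for relapse against stable, from -0.055 to 0.0764 (Atg7), -0.0717 to 0.02 (Becn1), -0.126 to 0.412 (Map1lc3a), -0.086 to 0.0442 (Sqstm1), -0.081 to 0.0592 (Ulk1) and -0.168 to 0.00541 (Ulk2). Every member had at least 215 counts in every tumour.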
